A study of Mus musculus with 32 samples.

Results

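The genes described here are 10 interferon-inducible GTPases of the mouse. They are 7 immunity-related GTPases (IRG: Irgm1, Irgm2, Igtp, Iigp1, Ifi47, Tgtp1 and Tgtp2) and 3 guanylate-binding proteins (GBP: Gbp2, Gbp3 and Gbp7). The 10 were taken by symbol from a table of 54532 genes, and each symbol had 1 row. They were chosen by their FPKM in brown fat, where Iigp1 and Irgm2 were lower with auranofin than with vehicle, so the brown fat comparison of auranofin with vehicle is a description and carries no test. RNA sequencing was done on wild-type C57/Bl6j mice that all ate a 60% fat diet for 12 weeks, and no group on another diet was analysed here. Mice received vehicle or auranofin, a gold-containing antirheumatic drug, at 1 mg per kg 3 times a week for 4 weeks. From each treatment, 4 libraries were made from inguinal white fat (iWAT), epididymal white fat (eWAT), liver and brown fat labelled intrascapular (BAT), 32 in all. The labels give no age or sex, and they do not state whether each library had its own animal, so each p-value measures only the spread between libraries.

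Both families are made by cells in answer to interferon, above all interferon gamma, and act within the cell against bacteria and parasites that live in vacuoles. Interferon gamma binds the receptor made of Ifngr1 and Ifngr2, which activates Jak1 and Jak2. The promoters of target genes carry gamma-activated sites (GAS) and interferon-stimulated response elements (ISRE), and Irf1 is among the factors that bind the ISRE. Irgm1, Irgm2 and Igtp are regulatory IRG proteins that sit on the cell's own membranes and hold the effector IRG proteins inactive there. Iigp1, Tgtp1, Tgtp2 and Ifi47 are effector IRG proteins, of which Iigp1 and Tgtp load onto and break up pathogen vacuoles. The GBP proteins gather on the same vacuoles and on freed bacteria.

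The sequences that link these genes to that pathway are shown here because the members share them. Irgm1, Tgtp1, Tgtp2 and Ifi47 lie within chr11:48861968-49096974, Igtp and Irgm2 within chr11:58199556-58222782, and the GBP genes within chr3:142530342-142638008, as the deposited table gives them on mm10. RefSeq promoter windows of 300 bases, 250 before to 50 after a start site on GRCm38.p6, matched 9 of the 10 genes, all but Iigp1. The motifs searched on both strands were GAS, written TTCNNNGAA, and the ISRE core, which is GAAA, any 2 bases and GAAA again. An ISRE core was found in 8 of the 9 genes, against 3.44% of all 32851 windows of the same length. A GAS was found in 5 of the 9, Igtp, Irgm2, Tgtp1, Tgtp2 and Gbp7, against 8.3% of windows. Ifi47 had neither in its window.

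In Igtp, Irgm2, Tgtp1 and Tgtp2 the first base of the GAS lay 11 bases before the first base of the ISRE core. This spacing, counted in either orientation, occurred in 5 of the 32851 windows (0.0152%), those of these 4 genes and of Gm12185, another IRG gene. The spacing was chosen after it had been seen in these genes, so its rarity is a description. The excerpts below run 5′ to 3′ on the gene's strand, with the GAS first and the ISRE core second in capitals.
Igtp, chr11:58199491-58199551, plus strand: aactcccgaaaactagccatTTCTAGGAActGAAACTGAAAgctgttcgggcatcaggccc
Irgm2, chr11:58214882-58214942, plus strand: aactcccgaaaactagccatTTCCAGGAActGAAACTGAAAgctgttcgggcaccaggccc
Tgtp1, chr11:48992294-48992354, minus strand: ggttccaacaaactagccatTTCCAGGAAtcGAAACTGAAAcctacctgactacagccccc
Tgtp2, chr11:49064253-49064313, minus strand: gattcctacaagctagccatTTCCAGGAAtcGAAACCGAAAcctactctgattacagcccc
The excerpts were compared position by position without gaps. A base gained or lost, as between Tgtp1 and Tgtp2 after the ISRE core, therefore lowers the identity. Igtp and Irgm2 had the same base at 59 of the 61 positions (96.7%), and Tgtp1 and Tgtp2 at 47 (77.0%). Between these 2 pairs the identity was 63.9% to 70.5%, and the pairs are copies of one another in part, so they are not independent cases of the spacing.

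The ISRE core alone, in capitals below, was seen in Irgm1, Gbp2 and Gbp3. It lay on the plus strand of the Irgm1 transcript, with 2 overlapping matches that are capitalised as 1 run, and on the opposite strand in Gbp2.
Irgm1, chr11:48871421-48871470, minus strand: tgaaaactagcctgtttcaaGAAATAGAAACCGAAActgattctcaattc
Gbp2, chr3:142620584-142620633, plus strand: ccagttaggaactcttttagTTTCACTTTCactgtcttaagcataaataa
All matches in the 9 genes lay between 106 and 24 bases before the start site, counted to the motif's first base, as the map of motif positions shows. A match in these letters is not a measured binding site, and none of these files measures binding.

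**Figure D1:**
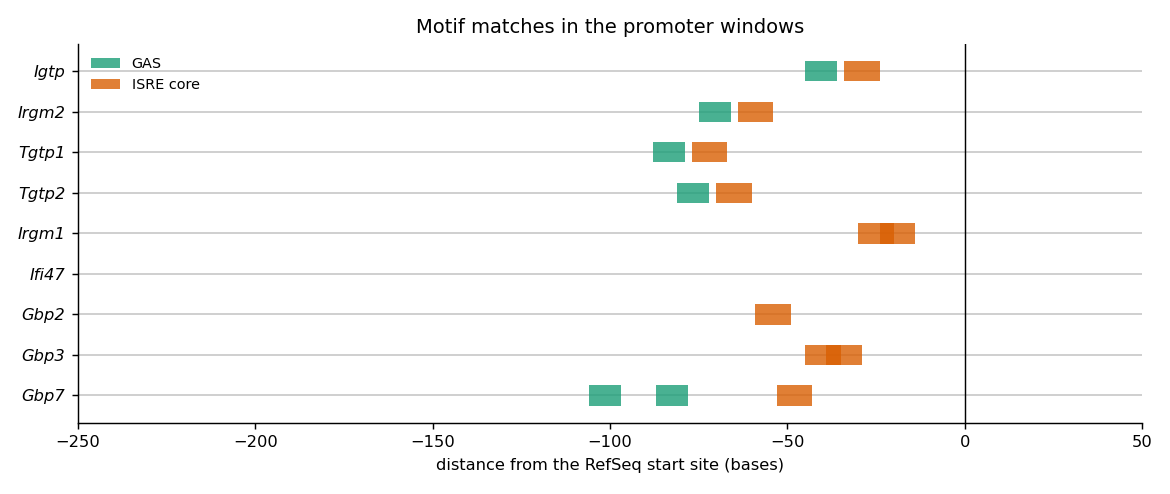
Positions of GAS (green) and ISRE core (orange) matches in the RefSeq promoter windows of 9 genes, as distance in bases from the start site on the x axis. The GAS and ISRE core stand side by side in Igtp, Irgm2, Tgtp1 and Tgtp2, and Ifi47 has no match.

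Values are FPKM, reads per gene divided by gene length and a library size, so levels can be compared between genes. Whole reads rebuilt from them numbered 13606756 to 19205640 per library. The library size that the values imply was not this read total. Liver vehicle library 1 had 18109130 reads and an implied size of 13267136, and eWAT vehicle library 1 had 17036845 and 24013795. Levels set side by side between tissues therefore depend on that scaling. Tgtp1 and Tgtp2 are near copies: 91.4% of the 50-base stretches of the Tgtp1 transcript and 90.6% of those of Tgtp2 occur in another gene, mostly in each other. Their separate values are uncertain. Igtp and Irgm2 overlap on the same strand over 8.01% and 4.39% of their exonic bases, 12.3% of the 50-base stretches of Igtp occur in Irgm2, and 6.29% of those of Irgm2 occur in Igtp. For Gbp7 the share was 12.8%, for Gbp3 4.79%, and for the other members at most 3.71%. Marker sums set liver and BAT apart: 10 hepatocyte markers summed to 63016 to 92734 FPKM in liver and to at most 528 elsewhere. The 7 brown adipocyte markers summed to 6091 to 14262 FPKM in BAT. They summed to 235 to 738 FPKM in liver, 30.1 to 200 in iWAT and 12.5 to 125 in eWAT. Liver thus lay above white fat in this list, though Ucp1 and Dio2 were listed at 0 there. iWAT and eWAT overlapped in both sums. Several libraries stood apart from their group in cell type markers. In iWAT auranofin library 2 the adipocyte markers summed to 12957 FPKM, against 7453 to 8229 in the other 3 auranofin libraries. In eWAT vehicle libraries 1 and 2 the macrophage markers summed to 4279 and 3550 FPKM, against 1941 and 1949 in vehicle libraries 3 and 4. In eWAT auranofin libraries 1 and 2 the adipocyte markers summed to 9432 and 12185 FPKM, against 5863 and 5928 in libraries 3 and 4. Muscle markers summed to 1276 FPKM in iWAT vehicle library 4 and 734 in iWAT auranofin library 4, against 9.51 to 30.4 in the other iWAT libraries, and they varied widely in BAT.

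Liver and fat differed in the summed levels of these IRG and GBP genes, in which Iigp1 in liver and Gbp2 in fat weighed most. Not every gene followed its family's sum, as the IRG genes Tgtp1 and Tgtp2 had lower means in liver than in fat. The 7 IRG genes together reached 126 to 184 FPKM in liver, with a median of 149, against medians of 36.6 in iWAT, 42.2 in eWAT and 32.9 in BAT. The 3 GBP genes summed to 5.40 to 7.10 FPKM in liver, against medians of 43.7 in iWAT, 38.5 in eWAT and 28.5 in BAT. The ratio of IRG to GBP within a library, which no scaling of the library changes, was 21.5 to 31.5 in the 8 liver libraries. In the 24 fat libraries it was 0.667 to 1.47, so liver and fat did not overlap. Iigp1 made up a median of 65.1% of the IRG sum in liver and of 22.5% to 26.3% in the fat depots. Gbp2 made up a median of 36.9% of the GBP sum in liver and of 68.1% to 74.1% in fat. These are bulk samples, in which fewer cells of a type and less RNA per cell cannot be told apart.

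Among the regulatory IRG genes, Irgm1 had 10.5 ± 1.58 FPKM in liver (SD, n = 8, both treatments), 3.63 times the mean of iWAT, 2.83 times that of eWAT and 3.39 times that of BAT. Its liver libraries, at 9.02 to 13.8 FPKM, all lay above its fat libraries, at 2.05 to 4.87. Igtp had 22.0 ± 4.41 FPKM in liver against 10.5 ± 1.12 in iWAT, 9.42 ± 1.81 in eWAT and 7.86 ± 1.34 in BAT (SD, n = 8 each). Irgm2 had 13.0 ± 2.14 FPKM in liver against 6.68 ± 1.24, 7.89 ± 1.44 and 5.60 ± 1.29 in the same depots (SD, n = 8 each). Its lowest liver library, at 8.67 FPKM, lay below the highest eWAT library, at 9.29, and the highest iWAT library, at 9.09.

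Among the effector IRG genes, Iigp1, which lies on chromosome 18, was the most abundant member in liver and differed most from fat. Liver vehicle libraries held 106, 85.9, 86.8 and 111 FPKM of Iigp1, and liver auranofin libraries 98.4, 81.8, 101 and 122. The 24 fat libraries lay between 5.02 and 12.5 FPKM, so the groups were far apart. The liver mean of Iigp1 was 10.4 times that of iWAT, 10.9 times that of eWAT and 11.8 times that of BAT. Ifi47 was 2.06 times higher in liver than in iWAT, 1.63 times higher than in eWAT and 3.99 times higher than in BAT. Tgtp2 ran the other way, with 0.714 ± 0.264 FPKM in liver and 3.98 ± 0.687 in BAT (SD, n = 8 each). Its means were 3.70, 3.76 and 5.58 times the liver mean in iWAT, eWAT and BAT. Those of Tgtp1 were 1.38, 1.30 and 2.22 times the liver mean. Liver values of Tgtp1 and Tgtp2 rest on 9 to 49 reads per library.

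Gbp2 was the most abundant member in fat. Its libraries lay at 27.6 to 34.9 FPKM in iWAT (median 31.4), 23.5 to 39.6 in eWAT (median 29.3), 13.3 to 31.6 in BAT (median 18.3) and 1.96 to 2.99 in liver (median 2.14). The depot means of Gbp2 were 13.6, 12.7 and 8.98 times the liver mean in iWAT, eWAT and BAT, with no overlap. Gbp3 was 3.76, 3.14 and 3.10 times higher in the same depots than in liver, and Gbp7 1.96, 1.89 and 1.58 times higher. The plot of FPKM by library shows each of these levels.

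**Figure D2:**
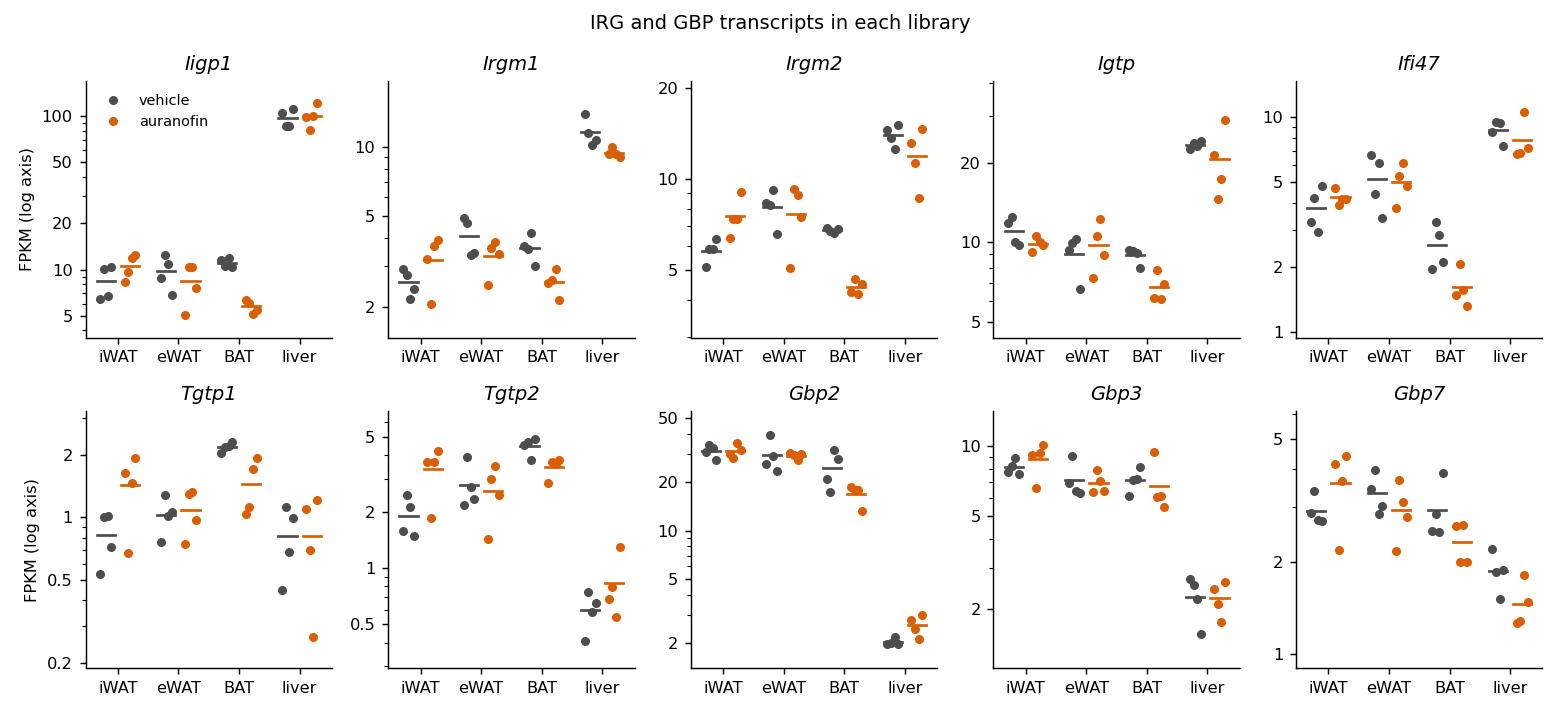
FPKM on a log axis (y) of the 10 genes in each library, by tissue (x), with vehicle in grey and auranofin in orange, points for libraries and bars for means of 4. Iigp1 is at 81.8 to 122 FPKM in liver and at most 12.5 in fat, and Gbp2 is at 1.96 to 2.99 in liver and at least 13.3 in fat.

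Tissues were tested with limma on log2(FPKM + 1), a scale that understates differences of low genes, as contrasts averaged over vehicle and auranofin, which are independent of the contrast that chose the members. Between iWAT and liver 9 of the 10 genes passed a Benjamini-Hochberg adjusted p of 0.05 over all genes, against 76.7% of all 14413 genes tested. The count was 9 of 10 between eWAT and liver, against 78.4%, and 10 of 10 between BAT and liver, against 72.5%. These shares are close to those of all genes, so the counts say little about the members, and the sizes carry the description. Iigp1 was lower than in liver by 3.27 (SE 0.13, adjusted p = 3.38e-19) in iWAT, 3.34 in eWAT and 3.46 in BAT on the log2 scale. Gbp2 was higher than in liver by 3.29 (SE 0.10, adjusted p = 8.04e-22), 3.20 and 2.68 in the same depots. Both sizes lay between the 91st and 94th percentile of all genes, whose absolute difference was smaller in 91.0% to 94.2% of cases. The gene that did not pass in iWAT and eWAT was Tgtp1, at 0.22 (95% interval -0.03 to 0.46) and 0.20 (-0.05 to 0.44).

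The direction of the IRG genes between white fat and liver depends in part on the scale. FPKM values summed to 573272 to 650120 per library in liver and to 241571 to 369437 in white fat, so rescaling each library to the same total (the TPM scale) raises white fat. It moves the median difference of all genes from -0.03 to 0.72 between iWAT and liver, from -0.04 to 0.90 between eWAT and liver and from 0.01 to 0.27 between BAT and liver. On the TPM scale Iigp1 was still lower than in liver by 2.45 in iWAT, 2.32 in eWAT and 3.22 in BAT, and Gbp2 higher by 4.36, 4.48 and 3.15. Irgm1 was lower than in liver by 0.89, 0.36 and 1.32 there. Irgm2 and Ifi47, however, were above liver in eWAT, by 0.39 and 0.38, and in iWAT Irgm2, Igtp and Ifi47 lay within 0.13 below liver and did not pass. Relative to that scale's median gene, Iigp1, Irgm1, Irgm2, Igtp and Ifi47 lay below and Tgtp1, Tgtp2, Gbp2, Gbp3 and Gbp7 above in the 3 depots.

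Among the fat depots the members differed less. Between iWAT and eWAT 1 of 10 passed, against 41.8% of all genes: Irgm1 was lower in iWAT by 0.28 (SE 0.09, adjusted p = 0.0191), and it did not pass without iWAT auranofin library 2 (-0.20, adjusted p = 0.0617) or without eWAT vehicle library 1 (-0.24, adjusted p = 0.0511). Between iWAT and BAT 7 of 10 passed, against 60.9%, and between eWAT and BAT 5 of 10, against 65%. Ifi47 was higher than in BAT by 0.72 (SE 0.12, adjusted p = 5.42e-06) in iWAT and by 0.98 (SE 0.12, adjusted p = 2.37e-08) in eWAT. Gbp2 was higher by 0.61 and 0.52. Irgm2 was higher in eWAT than in BAT by 0.44 (adjusted p = 0.000268) over both treatments, a size that includes the low BAT auranofin libraries. Tgtp1 and Tgtp2 were lower in white fat than in BAT, by 0.42 and 0.50 in iWAT and by 0.44 and 0.45 in eWAT, but on the TPM scale these differences did not pass and in eWAT turned to 0.04 and 0.18 above BAT. Iigp1 did not pass against BAT on the FPKM scale. On the TPM scale it lay above BAT by 0.77 (adjusted p = 0.000124) in iWAT and 0.90 (adjusted p = 1.35e-05) in eWAT. The medians of all genes there were 0.48 and 0.67. The BAT mean here includes auranofin libraries, and in vehicle libraries alone Irgm2 in iWAT lay 0.20 below BAT in place of 0.23 above. In eWAT Irgm2 had means of 8.10 FPKM with vehicle and 7.68 with auranofin, against 6.79 and 4.41 in BAT. Tgtp1 had means of 0.82 FPKM in iWAT and 2.17 in BAT with vehicle, and 1.43 and 1.45 with auranofin. Tgtp2 had 1.90 and 4.49 FPKM with vehicle, and 3.37 and 3.48 with auranofin. The BAT values were among those that chose the members, so these values within a treatment are a description.

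The other 16 genes of both families, listed for comparison, held liver-high and fat-high genes in both families. Gm4951, an IRG gene that resembles Iigp1, had 45.7 ± 4.55 FPKM in liver of vehicle mice (SD, n = 4) and means of 0.434 to 0.982 in the fat depots. It was lower than in liver by 4.57 in iWAT, 4.43 in eWAT and 5.08 in BAT on the log2 scale. Of the 50-base stretches of Iigp1, 2.83% occur in Gm4951. F830016B08Rik, also an IRG gene, was lower than in liver by 1.76, 1.85 and 1.88. Among the GBP genes, Gbp4, Gbp5, Gbp6 and Gbp9 were lower in liver than in all 3 depots, as Gbp2, Gbp3 and Gbp7 were: Gbp9 was higher in fat by 1.16, 1.36 and 1.38. Gbp8 and Gbp11 were higher in liver than in all 3 depots on the FPKM scale, Gbp11 by 0.50, 0.88 and 1.14, while on the TPM scale Gbp11 lay 0.05 above liver in iWAT and Gbp8 0.22 above liver in eWAT. The plot of family levels by tissue sets these genes side by side.

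**Figure D3:**
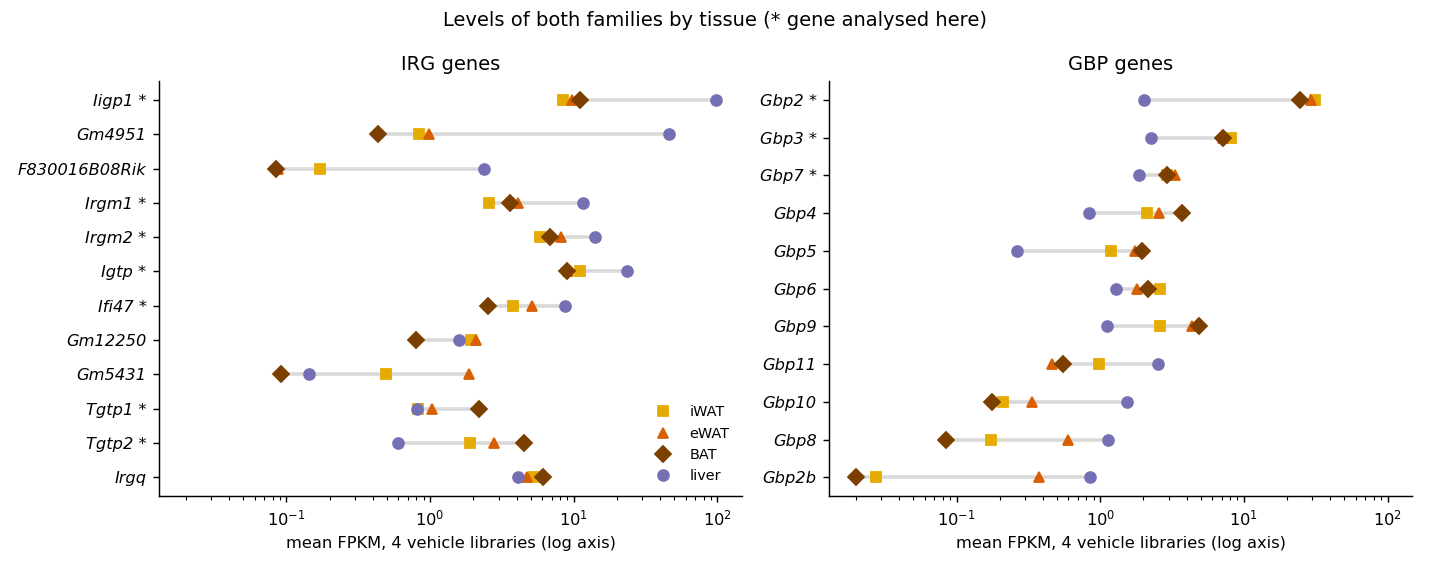
Mean FPKM over 4 vehicle libraries on a log axis (x) for IRG genes (left) and GBP genes (right) with at least 0.5 FPKM in a tissue, with 1 marker per tissue. Iigp1 and Gm4951 are farthest to the right in liver, and Gbp2 is at 2.03 FPKM in liver against 24.5 to 31.4 in fat.

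Upstream genes of the pathway also differed between tissues, as most genes did. Ifng, the ligand, was listed at 0 in every liver library and had at most 0.238 FPKM in any library. Ifngr1, the ligand-binding receptor chain, was higher in fat than in liver by 3.33 in iWAT, 3.07 in eWAT and 2.18 in BAT on the log2 scale (adjusted p at most 1.00e-19). Stat2 had 24.0 ± 2.52 FPKM in liver of vehicle mice and means of 3.21 to 6.25 in fat, lower than in liver by 2.33, 1.97 and 2.10. Irf2, a factor that also binds ISRE sequences, was lower than in liver by 1.67, 1.196 and 1.53, but on the TPM scale its difference in eWAT was -0.22 (adjusted p = 0.0845). Irf9 was lower by 1.17, 0.76 and 1.07, but on the TPM scale it lay 0.24 above liver in eWAT. Of the 17 signalling genes tested, 8 were higher and 5 lower in iWAT than in liver, 9 and 4 in eWAT, and 4 and 5 in BAT. Of all genes, 76.7%, 78.4% and 72.5% passed in these contrasts in either direction, so the counts say little about the signalling genes. The 10 endothelial markers summed to 32.8 to 47.7 FPKM in liver and 133 to 417 in fat, so liver lay below every fat library. The macrophage markers summed to 142 to 266 FPKM in liver, 1120 to 4279 in eWAT, 451 to 722 in iWAT and 118 to 405 in BAT, which overlapped liver. Their part in the tissue differences was not tested.

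In iWAT the members tended to be higher with auranofin, but 0 of 10 passed, as 0% of all 13164 genes did. The smallest adjusted p of any gene was 0.204. Irgm2 had 5.14, 5.87, 5.89 and 6.34 FPKM in the vehicle libraries and 6.38, 7.40, 7.36 and 9.09 in the auranofin libraries. Every auranofin library lay above every vehicle library, though the lowest of them exceeded the highest vehicle library by little. The log2 difference was 0.32 (SE 0.11, adjusted p = 0.204), and no other member had groups that did not overlap, against 2.77% of all genes in that direction and 5.18% in either. Tgtp2 had 1.57, 2.46, 2.11 and 1.48 FPKM with vehicle and 3.70, 1.86, 3.69 and 4.24 with auranofin. Auranofin library 2 lay among the vehicle libraries and the other 3 above them, a log2 difference of 0.57 (SE 0.20, adjusted p = 0.204). Tgtp1 differed by 0.39 (adjusted p = 0.237) and Iigp1 by 0.32 (adjusted p = 0.307). In all, 8 of 10 lay above 0 with a median of 0.21, against a median of -0.02 for all genes. Of all genes, 52.2% lay below 0. On the TPM scale all 10 of 10 lay above 0, Igtp and Gbp2 included, with a median of 0.51 against 0.23 for all genes. Only 25.7% of all genes lay below 0 on that scale, so the count of members says little.

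Auranofin library 2 decides the calls in iWAT. Without it 4 of 10 passed, Irgm1, Tgtp1, Tgtp2 and Gbp7, while 36.4% of all genes did too, so the share of members is near the background. Tgtp2 was then 0.76 higher (adjusted p = 0.0040) and Tgtp1 0.56 (adjusted p = 0.0121). The same library stood apart from the other auranofin libraries in cell type markers and lay near or within the vehicle range in several lists. Endothelial markers summed to 417, 410 and 330 FPKM in auranofin libraries 1, 3 and 4, to 229 in library 2 and to 260 to 312 with vehicle. The part of these markers in the result was not tested. At an unadjusted p of 0.05, 2 of 10 members and 2895 of 13164 genes passed, and voom on the rebuilt reads called 0 members. Other IRG and GBP genes lay above 0 in 6 of 8 tested, with Gbp9 at 0.72 (adjusted p = 0.212). The other targets of interferon gamma lay below 0 in 15 of 21, with Psme2, a proteasome activator subunit, at -0.66. The autophagy conjugation genes, whose products load the GTPases on vacuoles, lay below 0 in 10 of 11, with Atg5 at -0.48. None of these passed.

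In eWAT no member differed by more than 0.23 on the log2 scale, and 0 of 10 passed, as 0% of 13847 genes did. No member had groups that did not overlap, against 6.95% of all genes in either direction. Irgm1 had 4.87, 4.62, 3.36 and 3.42 FPKM with vehicle and 2.48, 3.60, 3.81 and 3.38 with auranofin. The groups overlapped, and the difference was -0.23 (95% interval -0.58 to 0.13, adjusted p = 0.488). Iigp1 differed by -0.21 (-0.77 to 0.35). Of the 10, 7 lay below 0, with a median of -0.06, but without auranofin library 1 only 4 did, with a median of 0.04. Of all genes, 49.6% lay below 0 with every library kept. The intervals are wide: every member's interval in eWAT reached beyond 0.3 in size. No member and 1585 genes passed an unadjusted p of 0.05, and voom called 0 members. Macrophage markers lay below 0 in 11 of 13 and adipocyte markers above 0 in 9 of 10. Among signalling genes Ifngr2 lay at -0.40 and Ifngr1 at 0.33, each with groups that did not overlap, and neither passed.

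In liver 0 of 10 members and 0% of 13122 genes passed. Irgm1 had 13.8, 11.5, 10.2 and 10.7 FPKM with vehicle and 9.28, 9.96, 9.31 and 9.02 with auranofin. Every auranofin library lay below every vehicle library, and the log2 difference was -0.26 (SE 0.09, adjusted p = 0.790). It was the only member whose groups did not overlap, against 2.2% of all genes in that direction and 3.72% in either. Gbp2 had 1.98, 2.02, 2.17 and 1.96 FPKM with vehicle and 2.79, 2.45, 2.11 and 2.99 with auranofin, a difference of 0.24 (SE 0.09, adjusted p = 0.790). Auranofin library 3 lay within the vehicle range and the other 3 above it. Iigp1, the most abundant member there, differed by 0.04 (95% interval -0.26 to 0.35). At an unadjusted p of 0.05, 2 members and 793 genes passed, and voom called 0 members.

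No gene of the other interferon lists passed in liver. Of 22 type I interferon antiviral genes tested, 18 lay below 0 with a median of -0.20. In 5 of them, Ifit3b, Rsad2, Usp18, Ifih1 and Xaf1, every auranofin library was lower, as in 2.2% of all genes. Ifit3b had the smallest p, at -0.62 (adjusted p = 0.509). Gm12250, an IRG gene, lay at -0.57, Gbp10 at -0.55 and Gbp6 at -0.32, each with groups that did not overlap. Signalling genes lay below 0 in 7 of 16 and other interferon gamma targets in 11 of 21. In each of these lists 1 gene had groups that did not overlap, Irf9 at -0.29 and Tap1, a peptide transporter of antigen presentation, at -0.38. Macrophage markers, by contrast, lay above 0 in 12 of 12, and summed to 142 to 226 FPKM with vehicle and 179 to 266 with auranofin. Their part in these values was not tested.

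In BAT the members were lower with auranofin, which is how they were chosen. Iigp1 had 11.5, 10.6, 11.9 and 10.4 FPKM with vehicle and 6.31, 6.06, 5.15 and 5.45 with auranofin. The groups lay far apart, by a log2 difference of -0.84. Irgm2 had 6.93, 6.73, 6.66 and 6.86 FPKM with vehicle and 4.23, 4.69, 4.18 and 4.52 with auranofin, a difference of -0.53, and its vehicle libraries were close together. Both regulatory partners of Irgm2 were lower too: Irgm1 by 0.38, from 3.62 ± 0.480 to 2.55 ± 0.324 FPKM (SD, n = 4 each), and Igtp by 0.36, from 8.95 ± 0.630 to 6.78 ± 0.834 (SD, n = 4 each). Tgtp1 differed by -0.39 and Tgtp2 by -0.29 on the same scale. In these 6 genes every auranofin library was below every vehicle library, against 3.05% of all 13067 genes in that direction. Since this contrast chose the members, nothing is read from that share, nor from the 1 member, Iigp1, among the 0.023% of genes that passed.

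The remaining 4 members overlapped between groups in BAT. Ifi47 lay 0.43 lower, with 1.97, 3.24, 2.84 and 2.13 FPKM with vehicle and 1.48, 2.08, 1.57 and 1.31 with auranofin. Gbp2 lay 0.48 lower, with 20.9, 17.5, 31.6 and 27.9 FPKM against 18.8, 17.9, 17.9 and 13.3, and vehicle library 2 lay among the auranofin libraries. Gbp7 differed by -0.24. Gbp3 differed least, by -0.09, with 1 auranofin library at 9.43 FPKM above all vehicle libraries and 3 at 5.49 to 6.11. All 10 values lay below 0, with a median of -0.39, against 45% of all genes below 0. On the TPM scale all 10 also lay below 0, with a median of -0.58, against 68.6% of all genes. This contrast chose the members, so nothing is read from these shares. The IRG sum was 37.7 to 40.6 FPKM with vehicle and 24.6 to 28.1 with auranofin. The GBP sum was 27.5 to 41.3 FPKM against 20.8 to 30.8. The plot of differences by tissue places BAT beside the other tissues.

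**Figure D4:**
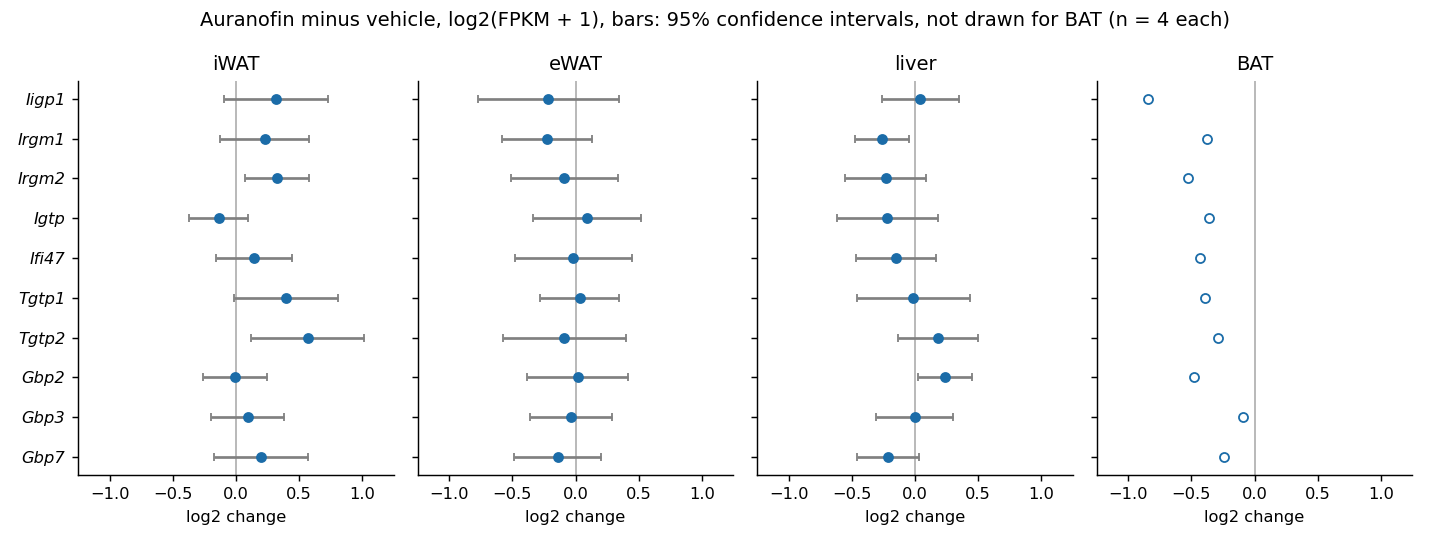
Log2 difference, auranofin minus vehicle, on log2(FPKM + 1) (x) for the 10 genes (y) in each tissue, 4 libraries per group, with 95% confidence intervals in iWAT, eWAT and liver. All 10 points lie below 0 in BAT, where the contrast chose the genes and no interval is drawn, and 8 of 10 lie above 0 in iWAT.

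Other genes of the pathway in BAT come from the same contrast and are likewise described without a test. The other IRG and GBP genes lay below 0 in 6 of 6, with Gm12250 at -0.37. Signalling genes lay below 0 in 14 of 16, and in Jak2 (-0.68), Ifngr2 (-0.40), Irf2 (-0.38) and Nlrc5 (-0.24) the groups did not overlap. Other interferon gamma targets lay below 0 in 16 of 21, with Icam1, an adhesion molecule, at -0.83. Type I interferon genes lay below 0 in 18 of 20, with a median of -0.11. Cell type markers differed in the same libraries. Macrophage markers lay below 0 in 12 of 13 and summed to 118 to 240 FPKM with auranofin and 212 to 405 with vehicle. Stromal markers lay below 0 in 7 of 8 and summed to 90.7 to 178 FPKM against 169 to 292. The T and NK cell markers summed to 4.66 to 7.73 FPKM against 6.77 to 11.4. Endothelial markers summed to 284 to 346 FPKM against 278 to 408, and brown adipocyte markers lay above 0 in 7 of 7. Muscle markers lay above 0 in 9 of 9 but varied within groups, with sums of 6.72, 2391, 5.38 and 957 FPKM with auranofin against 47.2, 4.395, 211 and 595 with vehicle. Auranofin libraries 1 and 3 thus lay below 3 of the 4 vehicle libraries. Without auranofin library 2 or 4 all 10 members lay below 0, with medians of -0.41 and -0.37, a description from the contrast that chose them. The part of these markers in the lower GTPase values was not tested.

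The difference of the auranofin effect between tissues was tested for eWAT, iWAT and liver, with BAT left out because it chose the members. In the 3 tests 0 of 10 members passed, as 0% of all genes did, and voom called 0 members in each. At an unadjusted p of 0.05 the members that passed numbered 1 between eWAT and iWAT, 2 between liver and iWAT and 0 between liver and eWAT. Of all genes, 3219 of 13670, 1957 of 14101 and 1715 of 14475 passed in the same tests. Irgm2 differed most between liver and iWAT, by -0.56 (SE 0.19, adjusted p = 0.301), and Irgm1 by -0.49 (adjusted p = 0.311). Tgtp2 differed between eWAT and iWAT by -0.66 (SE 0.31, adjusted p = 0.212). Without iWAT auranofin library 2, Irgm1 passed in both tests against iWAT and Gbp7 passed between liver and iWAT, while 14.8% of all genes passed between eWAT and iWAT and 18.4% between liver and iWAT.

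Within groups the members varied together only loosely. With each group's mean removed, 42 of the 45 pairs of members correlated above 0 over the 32 libraries, with a median Pearson r of 0.31 and a range of -0.18 to 0.79, the highest between the near copies Tgtp1 and Tgtp2. Pairs of IRG genes had a median r of 0.40, and pairs of an IRG with a GBP gene 0.26. The members' mean deviation was lowest in eWAT auranofin library 1 (-0.32 on the log2 scale), iWAT auranofin library 2 (-0.26) and eWAT vehicle library 4 (-0.23), and lay between -0.07 and 0.05 in the BAT libraries. It correlated with the deviation of the library's log2 FPKM sum at r = -0.44, against a median of 0.01 over all genes.

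The 8 genes whose pattern was most like that mean, of 11221 ranked, were Oasl2 (r = 0.82), Atg2b (0.81), Sp100 (0.79), Rnf213 (0.78), Elf2 (0.78), Git2 (0.77), Stat2 (0.77) and Nfat5 (0.77), over the 32 libraries. Oasl2 belongs to the list of type I interferon genes and Stat2 to that of the signalling genes. The likeness varied by tissue: over 8 libraries each, r of Oasl2 was -0.07 in BAT against 0.93 in iWAT, 0.82 in eWAT and 0.92 in liver. The members' mean deviation spanned only -0.065 to 0.046 in BAT, against -0.317 to 0.205 in eWAT, so r in BAT rests on little variation. In BAT the 8 genes ranged from -0.62 for Nfat5 to 0.41 for Stat2, and in liver from 0.30 for Git2 to 0.92. Over the 32 libraries Irf1 had r = 0.13, the macrophage gene Adgre1 0.19, the endothelial gene Pecam1 0.62 and the adipocyte gene Adipoq -0.54. These correlations share libraries and their composition and are given as a description.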

How the data were processed

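The deposited table gives FPKM that the authors computed per gene. Listed in the submitters' processing notes, without role or order, are mm10, DESeq2 1.20.0, featureCounts 1.5.0-p3, STAR 2.6.1d and CASAVA, and the kit kept no strand, per the labels. Reads rebuilt from FPKM and the table's gene length were whole within 0.1 read in 100% of cases. Here limma 3.58.1 in R 4.3.3 was fitted to log2(FPKM + 1) for genes averaging at least 0.5 FPKM, with an intensity trend, over all such genes. Auranofin was compared with vehicle within each tissue, effects between tissues as interactions, and tissues over all 32 libraries with 8 group means. The threshold was a Benjamini-Hochberg adjusted p of 0.05. The fits were tested on simulated data. Plots used Python 3.11.15 and matplotlib 3.10.9.

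The members and lists were chosen with earlier results of these data known. Named are the 10 members, from each list at most 4 genes per direction past the threshold or its leading gene, and the 8 genes most like the members' mean, at a mean of at least 1 FPKM. Genes named beyond this, among them those with groups that did not overlap, were chosen after their values were seen. Replicate numbers were not used as pairs, and whether they mark shared animals is not stated. No protein sequences were used here. Alternatives were pseudocounts, filters, scalings, voom on rebuilt reads, quality weights, a replicate block, 1 fit of all libraries, subsets and leaving out libraries.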

Additional observations from a re-analysis of the deposited data

Results flagged for a closer look

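Of 80 groups of 4 libraries tested with Dixon's criterion, 2 held a library far from the other 3, and chance alone gives about 1 in 20. Ifi47 was at 10.6 FPKM in liver auranofin library 3 and at 6.77 to 7.21 in the other 3. Gbp2 was at 13.3 FPKM in BAT auranofin library 4 and at 17.9 to 18.8 in the others.

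Irgm2 lay in opposite directions in 2 fat depots. Every auranofin library was above every vehicle library in iWAT (log2 difference 0.3243) and below every vehicle library in BAT (log2 difference -0.5286). The BAT value was used to choose the gene, and the difference between the depots was not tested.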

How the results depend on the processing

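The counts of members past the threshold between each fat depot and liver were within 1.5 times their main value under every alternative run. Irgm2 and Ifi47 between eWAT and liver turned to 0.3936 and 0.385 on the TPM scale. Between eWAT and BAT, Tgtp1 and Tgtp2 turned to 0.0364 and 0.1834 on that scale, and Irgm2 between iWAT and BAT turned to -0.1976 in vehicle libraries only.

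For the auranofin difference in iWAT the count of members was 0 and became 5 with quality weights, under which 46.3% of all genes passed, and 0 to 4 when each library was left out. In BAT, whose contrast chose the members, the count is a description only. It was 1 and became 0 on the TPM scale, 0 with the replicate block and 2 with quality weights. When each library was left out it was 0 to 2. For the interactions it was 0 to 1 between eWAT and iWAT and 0 to 2 between liver and iWAT when each library was left out. Between iWAT and eWAT the count of 1 became 3 on the TPM scale, 0 with quantile normalisation, 2 with voom, 3 in vehicle libraries, 0 in auranofin libraries, 0 in a fit of these 16 libraries alone and 0 to 3 when each library was left out. Between iWAT and BAT the count of 7 became 3 in vehicle libraries, a comparison that uses BAT vehicle values among those that chose the members. Between eWAT and BAT the count of 5 became 8 on the TPM scale, 3 in vehicle libraries and 5 to 8 when each library was left out. The cause of these changes was not tested, other than fewer libraries in the subsets. A share of all genes stands here only beside the quality weights in iWAT, so the other changes are not read as results about the members.

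The replicate block is a fit with the replicate number as a block. Same-numbered libraries did not all correlate above 0.1 (r from -0.343 to 0.387), so the numbers were not used as pairs, and whether they mark shared animals is not stated. The block changed no other count by over 1.5 times. Tgtp1 and Tgtp2 in liver rest on the fewest reads.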
